A study of Solanum tuberosum with 8 samples.

Results

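Transcripts that are abundant in potato buds and differ little between the dormant and the nondormant state were examined here. The 118 genes were chosen by 4 conditions on a table of 35091 genes. The authors' program had tested the gene (status OK, 19664 genes), its value was at least 200 FPKM (fragments mapped to a gene, scaled to transcript length and to the total mapped) in nondormant and in dormant meristems, the larger value exceeded the smaller by at most 15%, and its locus did not start in a region set aside by the rule. Those regions were chromosome 1 from 1 to 2 Mb, chromosome 3 from 16 to 21 Mb and chromosome 4 from 6 to 7 Mb. They held 5 further genes within both thresholds, with nondormant values of 217 to 664 FPKM and dormant values of 243 to 692 FPKM. The group values and their ratio chose the genes, so the values below describe the set and test nothing about it.

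RNA was sequenced from 8 samples of meristems cut out of tubers that had been grown in the field, all of the cultivar Russet Burbank. In 4 samples buds were dormant and were cut about 2 weeks after harvest, in the fall of 2005, 2007, 2009 and 2010. For the 4 nondormant samples, tubers from those harvests were kept at 4 °C until the buds began to sprout, and buds were cut in the following spring (2006, 2008, 2010 and 2011). Season of sampling, storage time and cold therefore go together with the state of the bud and cannot be told apart from it. Both states came from the same 4 harvests. Of the sampling years, 2010 occurred in both states and the others in only 1 of them. The authors give 1 value per gene and group, which leaves every level without a replicate error: the spread between harvest years is unknown, as is the read depth. FPKM is a share of the sequenced RNA. In an excised bud, fewer cells of a type and less RNA per cell cannot be told apart, and an equal FPKM does not show an equal amount of transcript per cell. The tissue label could not be checked against marker genes, since the table lists identifiers without names.

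Potato buds are dormant for a time after harvest, when they do not grow out even under favourable conditions, and sprout once this period has passed. Many transcripts change between those states. Others serve functions that every living cell keeps up, such as protein synthesis, the cytoskeleton, protein turnover and central carbon metabolism. Transcripts of this kind are used as internal references in quantitative PCR, and those for elongation factor 1-alpha, actin, tubulin and ubiquitin are common choices in plants, potato included. Which of the 118 loci encode such proteins cannot be said here. None of the identifiers matched the reference gene table (0 of 35091), so loci are given by position as the table prints it, with no genome build named, and no function is assigned to any of them.

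The steady genes ranged in level from just above the floor to near the top of the tested genes. Their best rank was 6 in nondormant and 13 in dormant meristems. Their nondormant values ran from 202 to 2973 FPKM with a median of 359 FPKM (quartiles 273 and 539). Their dormant values ran from 200.3 to 3317 FPKM with a median of 337 FPKM (quartiles 271 and 528). The median tested gene had 11.3 FPKM (nondormant) and 11.4 FPKM (dormant). The set made up 0.60% of the tested genes. It held 7.29% of the summed nondormant and 7.23% of the summed dormant FPKM of the table. Most members lay toward the lower end: 42 had a mean of both values under 300 FPKM, 42 had one from 300 to 500 FPKM, 21 had one from 500 to 1000 FPKM and 13 had one of 1000 FPKM or more. The 8 most abundant members alone held 24.2% of the set's summed nondormant and 24.6% of its summed dormant FPKM.

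**Figure D1:**
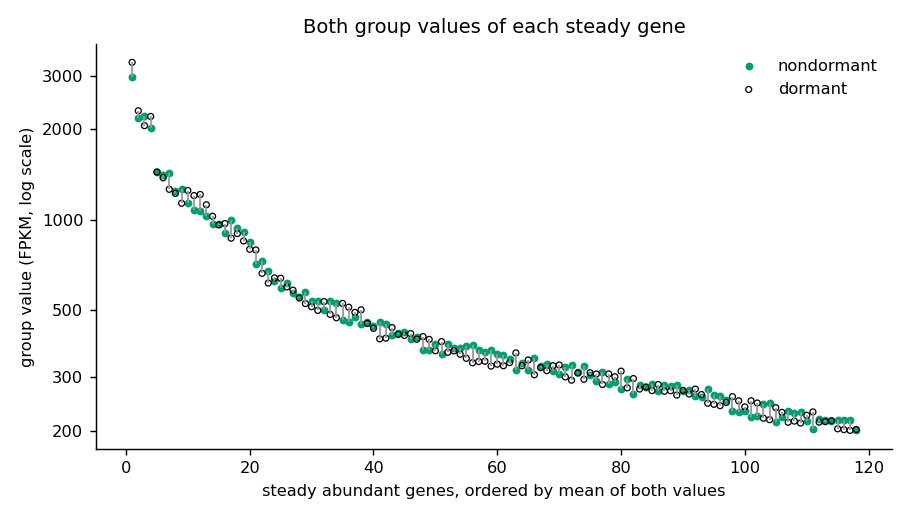
Nondormant (filled) and dormant (open) group values in FPKM, on a log axis, for each of the 118 steady genes ordered by the mean of both values; grey lines join the values of a gene. There are 13 genes at a mean of 1000 FPKM or more, and the order of filled and open points changes from gene to gene along the whole range.

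The most abundant of these loci was PGSC0003DMG400026911, on chromosome 6 from 47464348 to 47464939. Its values were 2973 FPKM (nondormant) and 3317 FPKM (dormant). This made it number 6 of the tested genes in nondormant meristems and number 13 in dormant meristems. It was thus 1.12 times higher in dormant meristems, yet it stood higher in the nondormant order, where fewer other transcripts exceeded it. PGSC0003DMG400008351, on chromosome 10 from 43968106 to 43969054, followed with 2178 FPKM (nondormant) and 2293 FPKM (dormant). The values of PGSC0003DMG400027197, on chromosome 5 from 43481819 to 43482394, were 2199.6 FPKM (nondormant) and 2048 FPKM (dormant). A locus on chromosome 8 from 37391099 to 37392826 had 2015 FPKM (nondormant) and 2196 FPKM (dormant). These 4 loci stood apart from the rest of the set, since the next one by mean level lay at 1436 FPKM.

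The remaining loci among the 8 most abundant lay between 1221 and 1438 FPKM. On chromosome 3 from 46898606 to 46900691, the values were 1435 FPKM (nondormant) and 1438 FPKM (dormant). PGSC0003DMG400012337, on chromosome 8 from 43301005 to 43304374, had 1405 FPKM (nondormant) and 1376 FPKM (dormant). A chromosome 12 locus from 48139816 to 48141969 had 1430 FPKM and 1260 FPKM, the widest difference among the 8 (1.13-fold). The last of them, on chromosome 3 from 5621126 to 5626390, had 1240 FPKM and 1221 FPKM. Of these 8 loci, 4 were on the nondormant-higher and 4 on the dormant-higher side. Loci shorter than 1 kb made up 3 of the 8, namely the first 3 by level, against 13.6% of the whole set.

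Within the set, the small ratios were spread over the whole range that the rule allows. The nondormant value was the larger one in 68 genes and the dormant value in 50. The median log2 ratio of nondormant over dormant was 0.02, with quartiles of -0.08 and 0.11 and extremes of -0.20 and 0.20. The median fold, taken as the larger over the smaller value, was 1.07. The larger value exceeded the smaller by at most 2% in 17 genes, by at most 5% in 43 and by at most 10% in 86. The genes nearest to equal were a chromosome 4 locus from 63061653 to 63067105 with 201.5 FPKM (nondormant) and 201.7 FPKM (dormant), a chromosome 10 locus from 49571862 to 49573724 with 278 and 279 FPKM, and the chromosome 3 locus from 46898606 described above.

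The edges of the set are set by the thresholds and not by a gap in the data. Just inside the ratio limit lay a chromosome 11 locus from 15191401 to 15194908, with 998 FPKM (nondormant) and 868 FPKM (dormant). A chromosome 7 locus from 38514412 to 38518363, with 274 and 315 FPKM, and a chromosome 10 locus from 45215254 to 45215564, with 383 and 336 FPKM, were the next inside. Just outside it were loci on chromosome 1 from 73395726 to 73397878 with 521 and 452 FPKM, on chromosome 12 from 35669494 to 35671488 with 665 and 577 FPKM, and on chromosome 7 from 50864095 to 50866245 with 360.4 and 311 FPKM. At the level floor, the lowest member values were 200.3, 201.5 and 201.6 FPKM. The nearest genes below it, with a ratio inside the limit, had lower values of 193, 194 and 194 FPKM.

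With the floor applied to both values, a small ratio was about as frequent among abundant genes as in the whole table. Outside the regions set aside, 524 tested genes had at least 200 FPKM in both states, and in 22.5% of them the states differed by at most 15%. Of all tested genes, 21.3% were that close. For a limit of 5% the shares were 8.21% and 7.76%, and for a limit of 50% they were 60.7% and 55.5%. The requirement on both values favours small ratios near the floor. Without it, 16.5% of the 260 tested genes with a mean of 200 to 300 FPKM were within 15%, 20.7% of the 203 genes from 300 to 500 FPKM, 12.7% of the 166 genes from 500 to 1000 FPKM and 16.7% of the 78 genes at 1000 FPKM or more. Over 10 equal classes of mean level, the share was lowest in the lowest class (10.7%), reached 26.1% in class 7 and was 18.6% in the highest class, to which all 118 genes belong. By these counts, a steady level was not more frequent at the top of the range than in its middle.

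**Figure D2:**
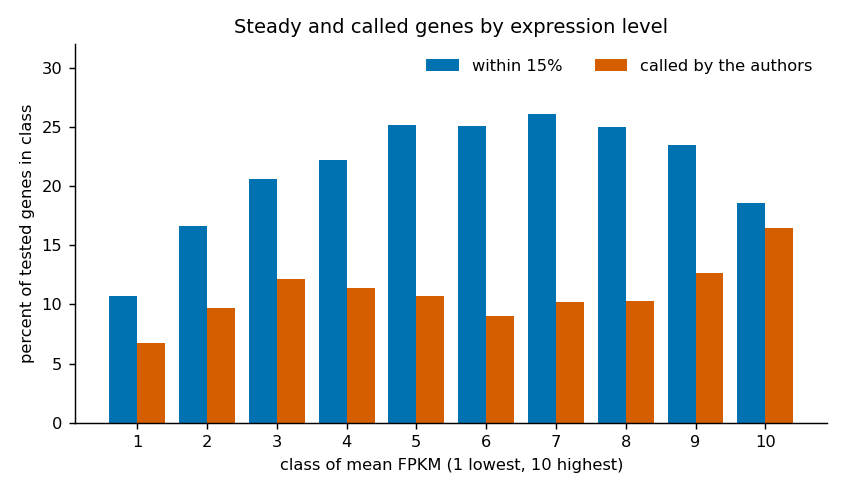
Percent of tested genes whose values differ by at most 15% (blue) and percent called as different in the authors' deposited table (orange) in 10 equal classes of mean FPKM. The share within 15% rises from 10.7% in class 1 to 26.1% in class 7 and is 18.6% in class 10, where 16.4% are called.

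The deposited comparison cannot by itself show that these genes were unchanged. A call is a q-value of 0.05 or less in the authors' deposited table. By that measure 0 of the 118 genes were called, where 10.9% of all tested genes were, and nothing is read from this difference because the smallest fold called anywhere in the authors' deposited table was 2.06. Their p-values in the authors' deposited table ran from 0.614 to 0.997 with a median of 0.813, and 0 of the 118 were under 0.05. In the authors' deposited table the lowest of these p-values was that of a chromosome 6 locus from 34362328 to 34365629, at 1.14-fold. The other abundant genes show how large a difference the comparison could call at this level. Of the 200 abundant genes that differed by over 15% but at most 1.5-fold, 0 were called in the authors' deposited table, as were 0 of 121 between 1.5-fold and 2-fold. From 2-fold to 2.5-fold, 7 of 40 were called in the authors' deposited table, from 2.5-fold to 3-fold 8 of 16, and above 3-fold 28 of 29. The smallest fold called among the abundant genes of the authors' deposited table was 2.17, and the largest left uncalled was 4.43. The absence of a call thus covers differences of up to 2-fold and many up to 2.5-fold, while the ratio of the group values was what separated the steady genes from the 321 abundant genes with a wider ratio of up to 2-fold.

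**Figure D3:**
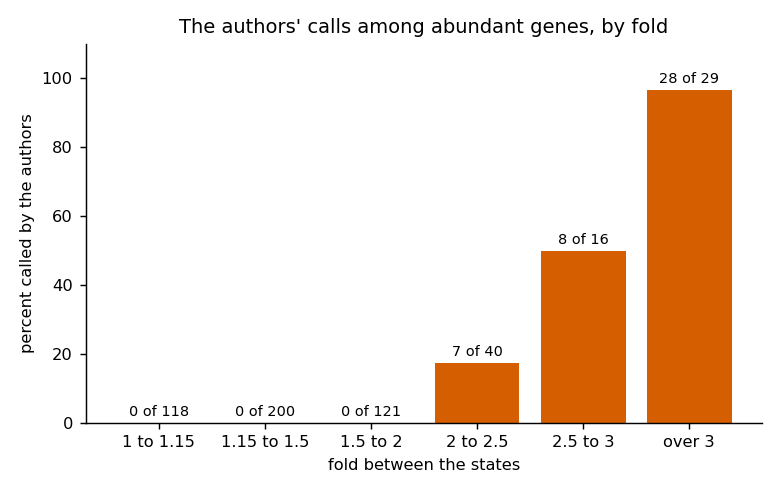
Percent of abundant genes (at least 200 FPKM in both states, regions set aside left out) called in the authors' deposited table, by fold between the states, with the counts above the bars. No bar rises above 0 until 2-fold, and 28 of 29 genes above 3-fold are called.

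The rest of the abundant genes frame the set. Beyond the ratio limit were 406 genes, 244 of them with the higher value in nondormant and 162 in dormant meristems (60.1% nondormant-higher, against 57.6% of the steady genes). Their median log2 ratio of nondormant over dormant was 0.32. Over the 19627 tested genes above 0 in both states the median log2 ratio was -0.05. These 406 genes held 34.4% of the summed nondormant and 33.2% of the summed dormant FPKM. The rank of a gene among the tested genes comes from the same values that chose the set, so ranks only describe it. The steady genes had a median change of rank of 25.5 places. In 84 of the 118 genes the rank was better in dormant meristems, in 33 it was better in nondormant meristems and in 1 it was equal. A better rank is not a higher value, since the nondormant value was the larger one in 68 of the 118. Among the 20 highest values of a state, the set had 3 genes in nondormant and 1 in dormant meristems, all named above by level. It had 16 and 17 genes among the 100 highest.

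**Figure D4:**
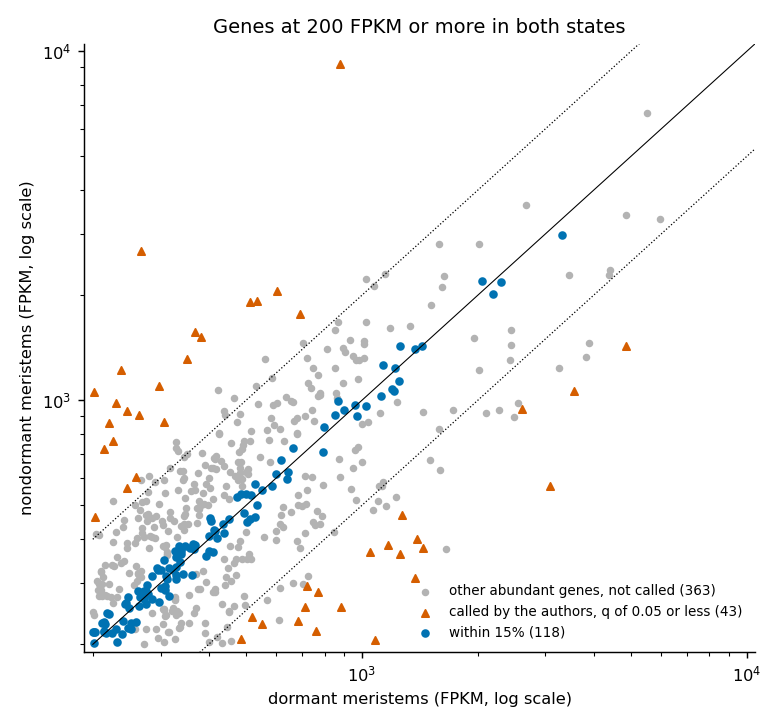
Nondormant against dormant values in FPKM, both on log axes, of the 524 abundant genes. The 118 genes within 15% (blue) lie along the solid line of equality, the 43 genes called in the authors' deposited table (orange triangles) lie outside the dotted 2-fold lines, and 363 genes (grey) are neither.

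Position was not used by the rule apart from the regions set aside. The steady genes lay on all 12 chromosomes, from 4 on chromosome 7 to 15 on chromosome 1. Relative to the abundant genes of a chromosome, they were most frequent on chromosome 8, where 14 of 34 abundant genes were steady (41.2%). On chromosome 5 the count was 10 of 28 (35.7%) and on chromosome 11 it was 10 of 32 (31.2%). The lowest shares were those of chromosome 7, with 4 of 38 (10.5%), and chromosome 2, with 5 of 40 (12.5%). The counts per chromosome are small, and these shares were not tested. The highest mean of a single steady gene was 3145 FPKM on chromosome 6, 496 FPKM on chromosome 2, 518 FPKM on chromosome 9 and 526 FPKM on chromosome 7. The medians of these means lay closer together, at 347 FPKM on chromosome 6, 297 FPKM on chromosome 2, 296 FPKM on chromosome 9 and 385 FPKM on chromosome 7. On chromosome 2, 1 of the 5 genes was on the nondormant-higher side, and on chromosome 1 it was 10 of 15.

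**Figure D5:**
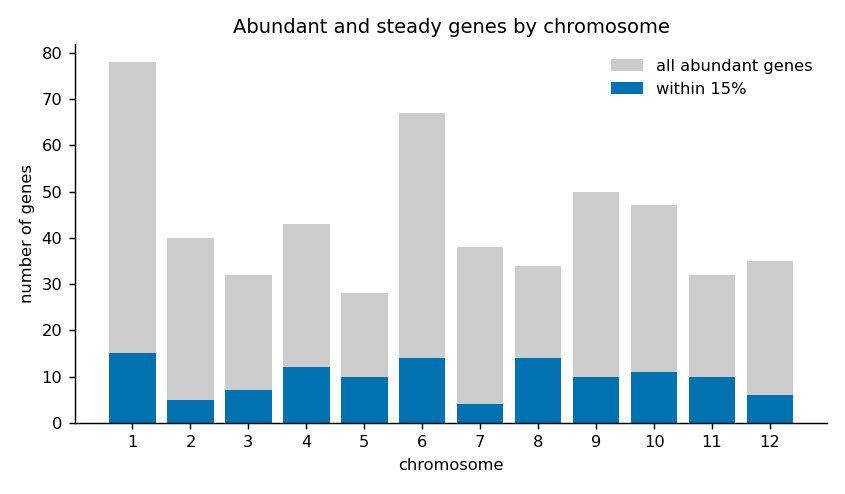
Number of abundant genes (grey, regions set aside left out) and of genes within 15% (blue) on each of the 12 chromosomes. Chromosome 8 has 14 steady genes among 34 abundant ones, and chromosome 7 has 4 among 38.

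Of the 118 steady genes, 6 had another steady gene as a neighbour. Among tested genes in chromosome order, 3 pairs of neighbours were both steady. The set is 0.60% of the tested genes, and the number of pairs was not tested against that share. Abundant genes, here counted with those in the regions set aside, made up 4.66% of the genes beside steady ones. They made up 5.79% of those beside the other abundant genes and 2.78% of those beside all tested genes. On chromosome 1, a locus from 80187186 to 80188430 had 451 FPKM (nondormant) and 405 FPKM (dormant), and the next tested gene, from 80191271 to 80192823, had 1080 and 1201 FPKM. The members of this pair lean in opposite directions across a gap of 2.84 kb. On chromosome 4, a locus from 53776469 to 53778323 had 1067 and 1211 FPKM, and its neighbour from 53784692 to 53786350 had 334 and 328 FPKM. On chromosome 11, loci from 37999277 to 38003400 and from 38005135 to 38008403 had 569.5 and 575 FPKM in nondormant and 584 and 527 FPKM in dormant meristems, so this pair was alike in level in both states. With steps of at most 250 kb between starts, 27 of the 118 genes fell into 13 stretches, and the longest chain had 3 genes. No like count for other genes stands beside this one. That chain lay on chromosome 4 from 56010973 to 56225146 and was picked out with its values known. It held 20 tested genes, 4 of them abundant, and 0 were called in the authors' deposited table. This count stops at the outer steady genes. The next tested gene, from 56226567 to 56228026, lay 1.42 kb further and was called. It had 9.28 FPKM (nondormant) and 2.60 FPKM (dormant), a 3.57-fold difference (q = 0.0317 in the authors' deposited table). Over all 13 stretches 7 of 131 tested genes were called in the authors' deposited table (5.34%), against 10.9% of all tested genes, and 6 stretches held a called gene. The 27 steady genes among these 131 were chosen for a small ratio and could not be called. This lowers the share, so nothing is read from the difference.

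The genes beside the steady ones were called about as often as genes in general. Of the 236 tested genes directly before or after a steady gene, 24 were called in the authors' deposited table (10.2%), 17 of them nondormant-higher and 7 dormant-higher. Beside the other abundant genes the share called in the authors' deposited table was 11.6%, and beside all tested genes it was 10.9%. A difference of at most 15% was found in 24.2% of the genes beside steady ones, in 21.3% of those beside the other abundant genes and in 21.3% of those beside all tested genes. The genes beside steady ones include the 6 steady genes of the neighbouring pairs, which were within 15% by the rule. Their inclusion raises the 24.2%. These shares were not tested. A steady level could thus stand beside a large difference. The following 3 cases, chosen after their values were seen, have the widest ratios among called neighbours with 1 case per chromosome. On chromosome 3, the steady locus from 43323134 to 43326593 had 424 FPKM (nondormant) and 413 FPKM (dormant), and 26.1 kb further the locus from 43352737 to 43353841 had 0.864 and 20.3 FPKM (23.5-fold, q = 0.00306 in the authors' deposited table). On chromosome 6, the steady locus from 53753977 to 53757874 had 261 and 242 FPKM, and its neighbour from 53726652 to 53732554 had 6.43 and 0.706 FPKM (9.10-fold, q = 0.00179 in the authors' deposited table). On chromosome 10, the steady locus from 9665746 to 9666565 had 457 and 513 FPKM, and its neighbour from 9631781 to 9632592 had 262 and 35.0 FPKM (7.5-fold, q = 0.00179 in the authors' deposited table). In the last case an abundant nondormant transcript and a steady one lie 33.2 kb apart.

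The loci of the steady genes spanned a median of 2956 bp from start to end (quartiles 1856 and 3938 bp, range 310 to 10310 bp), introns included where a gene has them. The other abundant genes had a median span of 2426 bp and all tested genes 3526 bp. At means of 200 to 400 FPKM the medians were 3116 bp for 71 steady and 2789 bp for 142 other abundant genes, and at 400 FPKM or more they were 2617 bp for 47 and 2245 bp for 264. The steady genes had the longer median in both bands, a difference that was not tested. Genes that share their whole printed interval with another gene of the table numbered 5 among the steady genes (4.24%), 6 among the other abundant genes (1.48%) and 1815 among all tested genes (9.23%). No other steady gene overlapped a model of the table. The sources used here do not say how reads were divided within such an interval. In each of the 5 cases the partner was far lower, at 8.33 FPKM or less in both states. The most abundant of them, on chromosome 10 from 4389323 to 4395381, had 905 FPKM (nondormant) and 970.4 FPKM (dormant), and its partner had 6.95 and 6.01 FPKM.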

How the data were processed

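Per the labels' protocols, meristems of Russet Burbank tubers were excised and frozen, RNA was isolated with a kit from Ambion, and Illumina's procedure gave the libraries. The deposited table compares nondormant with dormant meristems gene by gene. FPKM is taken to be the unit of the authors' group values, from a layout and status words like Cuffdiff's; the header does not print it. Aligner, genome build, annotation and the way in which the 4 samples of a group were combined are not stated in the labels or header, and read depth is unknown. The deposited p-value and q-value are the authors'.

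Ratios (limit 1.15) were computed from the deposited values, with nothing added. The members and the lists were chosen with earlier results of these data known. Loci named are the 8 highest by mean, the 3 nearest to equal, those at each threshold, neighbouring members and members among the 20 highest values of a state; others are marked where named. Gene groups by description could not be formed, since 0 identifiers matched assembly SolTub_3.0. Neighbours are consecutive tested genes on a chromosome. Selection and neighbour counting were tested on simulated data, in which all genes not planted differed far beyond the ratio limit. This checked the code and not the choice of thresholds. Scripts ran under Python 3.11.15 with pandas 2.3.3, numpy 2.4.6, matplotlib 3.10.9 and scipy 1.17.1.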

Additional observations from a re-analysis of the deposited data

How the results depend on the processing

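The number of steady genes followed the thresholds. With values allowed to differ by up to 25% it was 178, with a level floor of 100 FPKM 244 and with a floor of 400 FPKM 47, against 118 as reported. A limit of 10% left 86 genes. With these limits the share of abundant genes within the ratio was 16.4% at the 10% and 34.0% at the 25% limit, against 22.5%. Scaling the dormant values so that the median log2 ratio of all genes was 0 (a shift of 0.05) gave 106 genes, 100 of them among the 118. Scaling to equal sums gave 113, with 112 in common. A pseudocount of 1 kept all 118, leaving out genes with a shared interval gave 113 and putting the regions back gave 123. More members were on the nondormant-higher than on the dormant-higher side under each of these settings, with 61 against 45 after median scaling. The settings choose largely the same genes from the same values, so nothing is read from this agreement. With calls at a q of 0.01 or less in the authors' deposited table, 4.24% of the neighbours of steady genes were called, against 5.14% of the genes beside all tested genes. Leaving out replicates was not run, and no paired analysis was possible because the table has no columns of single samples.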

Other observations

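Among abundant genes beyond the ratio limit, the split by direction varied with the size of the difference. With a difference of over 15% but at most 1.5-fold, 124 of 200 genes were higher in nondormant meristems, and between 1.5-fold and 2-fold 79 of 121 were. From 2-fold to 2.5-fold the count was 21 of 40, from 2.5-fold to 3-fold it was 3 of 16, and above 3-fold it was 17 of 29. These counts were made after the values were seen and were not tested. The 43 abundant genes called in the authors' deposited table were nearly even in direction, with 22 nondormant-higher and 21 dormant-higher.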
